A study of Mus musculus with 9 samples.

Results

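Monocytic myeloid-derived suppressor cells (M-MDSCs) of LILRB4+/+ SCG2-/- mice were compared with M-MDSCs of WT mice across all measured genes. The members were chosen by genotype alone: 3 SCG2 knockout libraries and 3 WT libraries, 6 of the 9 libraries in the series. The other 3 come from LILRB4+/+ mice (LILRB4 libraries) and enter here only as the shared estimate of spread and for values set beside the comparison. All groups came from mice bearing MC38 (a colon carcinoma line of mouse origin), and the cells were sorted from the tumours before poly-A RNA was sequenced with a kit that keeps the strand.

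The knockout group is labelled by SCG2 and LILRB4, LILRB4+/+ as well as SCG2-/-, and its controls only as WT. If LILRB4+/+ differs from WT, the effects of these loci cannot be told apart in this comparison. The labels name no age, strain, sex or sorting gate, and leave unexplained which LILRB4 allele is meant, whether the knockout is of the whole body or of 1 cell type, or whether each library came from its own mouse. The p-values therefore measure the spread between these libraries, which may be technical. With 3 libraries against 3, an exact permutation test over libraries cannot go below 0.1.

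M-MDSCs are immature monocyte-like cells that gather in tumours and restrain T cells. LILRB4 is an inhibitory receptor of myeloid cells that signals through recruited phosphatases, and the mouse genome holds it as the neighbouring near copies Lilrb4a and Lilr4b. SCG2, secretogranin II, is a granin best known from the secretory granules of neuroendocrine cells. A pair of myeloid programmes recurs below: the type I interferon programme, in which interferon receptors switch on antiviral genes through STAT2, IRF9 and their partners, and the NF-kB programme, which drives inflammatory cytokines and its own inhibitors.

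Deposited counts summed to 18676591 to 23471040 in WT and 14501163 to 17740597 in SCG2 knockout libraries, and levels are given as CPM (counts per 1000000, after TMM scaling) unless another scale is named. All 10 monocyte markers were detected in all 6 libraries, among them Csf1r, the receptor of the monocyte growth factor, at 582 ± 107 CPM in WT and 387 ± 62.5 in knockout libraries (mean ± SD, n = 3 each, as throughout). Ly6g, the surface marker of granulocytic MDSCs, had at most 4 recovered counts in any of the 6 libraries, and the 6 neutrophil markers of the count table overlapped between the groups in their summed level. Transcripts of other cell types were present as well. The 8 fibroblast markers of the count table summed to 3452 ± 431 CPM in WT and 3609 ± 553 CPM in knockout libraries. The 10 monocyte markers summed to 2155 ± 647 and 1433 ± 271 CPM. The first principal component of 2000 genes held 66.6% of the variance. Along it the WT libraries spread from -1.5 to 38.8 and the knockout libraries from -21.7 to -6.1. LILRB4 replicates 1 to 3 lay at -27.15, 30.25 and -13.95, so this axis does not separate the genotypes of the series. WT replicate 1 was the WT library nearest the knockout libraries.

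No gene passed the test. For the 9877 genes of the count table, edgeR's quasi-likelihood test called 0 higher and 0 lower in knockout than in WT libraries at a Benjamini-Hochberg adjusted p under 0.05 (0.0% in each direction). The smallest adjusted p was 0.246. At an unadjusted p under 0.05, 837 genes were higher (8.47%) and 603 lower (6.11%). In all, 4975 of the 9877 log2 fold changes were positive (50.4%), with a median of 0.0027 and a median standard error of 0.19. The differences were lopsided in size: 333 genes had a log2 fold change above 1 and 27 one below -1. In 1282 genes (13%) all 3 knockout libraries stood above all 3 WT libraries, and in 1026 (10.4%) all 3 stood below. DESeq2 on the same counts called 69 genes higher (0.699%) and 23 lower (0.233%). Those calls include every gene chosen below by smallest edgeR p, such as Samd11 and Irf7 (DESeq2 adjusted p = 1.59e-06 and 0.00586). The methods thus disagree on these genes. Every gene value below is therefore a description of these libraries that did not pass edgeR's test, and genes are said to stand higher or lower, with their values. Single members of the gene lists below were mostly picked after their values were seen, so the counts and medians of whole lists, not the examples, describe a list. The counts at an unadjusted p depend on single libraries: without WT replicate 2 they were 337 and 215, without WT replicate 3 they were 544 higher, without SCG2 knockout replicate 2 they were 413 and 322, and without SCG2 knockout replicate 3 they were 436 higher.

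**Figure D1:**
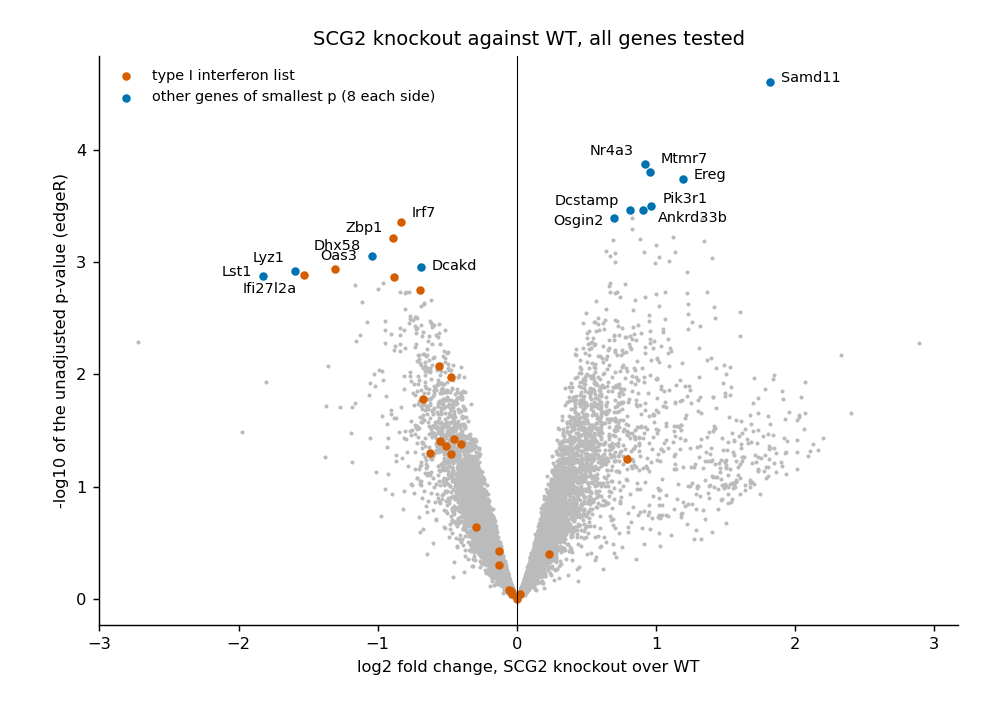
Log2 fold change of SCG2 knockout over WT (horizontal axis) against -log10 of edgeR's unadjusted p (vertical axis), 1 point per gene of the count table. Orange points are the 25 type I interferon response genes, 21 of which lie left of 0, and blue points are the remaining genes among the 8 of smallest p on each side. No gene passed after adjustment.

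T and NK cell transcripts were higher in mean in knockout than in WT libraries, and varied widely within the WT and LILRB4 groups. The 22 listed T and NK cell markers of the count table summed to 1316, 309 and 485 CPM in WT replicates 1 to 3 and to 1378, 2425 and 2384 CPM in SCG2 knockout replicates 1 to 3. The groups did not overlap, but WT replicate 1 and knockout replicate 1 lay close together. The difference of means was 1359 CPM (exact two-sided permutation p = 0.1, the smallest this design allows). Without TMM scaling the difference was 1346 CPM with an exact permutation p = 0.2, since the groups then overlapped. In LILRB4 libraries the same sum was 2603, 326 and 1854 CPM. The libraries with the lowest sums, WT replicates 2 and 3 and LILRB4 replicate 2, lay at 38.84, 22.53 and 30.25 on the first principal component. All other libraries had negative values on it. Whether that component follows these transcripts was not tested. All 22 members had positive log2 fold changes, with a median of 1.41, and 12 of 22 stood above WT without overlap (13% over all genes). Leaving out WT replicate 1 moved that median to 2.27. Il2rb, a receptor chain for IL-2 and IL-15, stood at 380, 83.9 and 151 CPM in WT and at 453, 842 and 870 CPM in knockout libraries. Cd3e, a chain of the T cell receptor complex, stood at 17.4, 5.51 and 8.57 CPM in WT and at 11, 31.1 and 36.4 in knockout libraries, where the groups overlapped. In bulk RNA, more cells of a type and more RNA per cell cannot be told apart. The part of these transcripts in the differences described below was not tested.

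**Figure D2:**
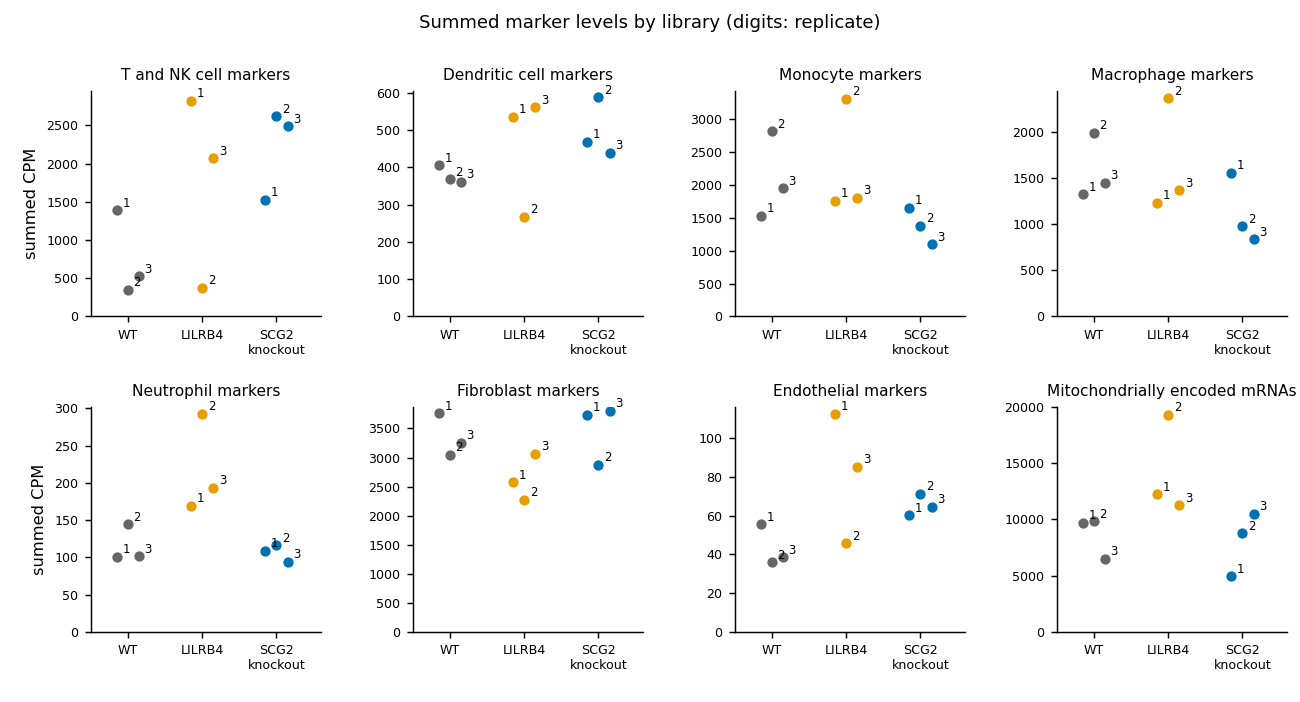
Summed CPM (vertical axes, recovered counts) of the markers of 7 cell types and of mitochondrially encoded mRNAs in each library, by group, with the replicate number beside each point. T and NK cell markers were low in WT replicates 2 and 3 and in LILRB4 replicate 2 and high in knockout replicates 2 and 3 and in LILRB4 replicates 1 and 3.

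The gene of smallest p was Samd11 (ENSMUSG00000096351, GRCm38 chromosome 4, 156246966 to 156255657, minus strand), which encodes a sterile alpha motif protein. It stood at 4.27, 2.22 and 3.09 CPM in WT replicates 1 to 3 and at 9.46, 12.1 and 12.2 CPM in knockout replicates 1 to 3. All knockout libraries lay above all WT libraries, at a log2 fold change of 1.82 (SE 0.26; adjusted p = 0.246 with edgeR's quasi-likelihood test). The LILRB4 libraries, at 11.7, 10.6 and 12.5 CPM, lay near the knockout libraries and above all WT libraries.

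The next 7 genes by p among those higher in knockout had log2 fold changes of 0.70 to 1.19, each with an edgeR adjusted p of 0.317. Nr4a3, an orphan nuclear receptor switched on within minutes to hours of stimulation, stood at 172, 159 and 175 CPM in WT and at 262, 357 and 339 CPM in knockout libraries (log2 0.92, SE 0.16). Ereg, which encodes the EGF receptor ligand epiregulin, stood at 9.19, 6.28 and 8.82 CPM in WT and at 20.4, 14.3 and 20.8 CPM in knockout libraries (log2 1.19, SE 0.22). Pik3r1, a regulatory subunit of phosphoinositide kinase, stood at 81.0, 63.8 and 74.3 CPM against 115, 153 and 161 CPM (log2 0.97, SE 0.19). In these genes the lowest knockout library was above the highest WT library. Mtmr7, a phosphoinositide phosphatase, had a log2 fold change of 0.96, Ankrd33b one of 0.91, Dcstamp, a membrane protein needed for the fusion of osteoclasts and giant cells, one of 0.81, and Osgin2 one of 0.70. None of these groups overlapped either.

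In LILRB4 libraries Nr4a3, Mtmr7, Pik3r1, Ankrd33b and Osgin2 stood at or above the lowest knockout library, like Samd11, and Ereg and Dcstamp stood below it. Ereg stood at 9.36, 9.0 and 10.7 CPM in LILRB4 libraries, near WT, with a log2 difference of 0.93 between knockout and LILRB4. Dcstamp stood at 17.5, 18.1 and 16.8 CPM in LILRB4 libraries, above WT (at most 16.04 CPM) and below knockout libraries. Neither difference from LILRB4 passed the test.

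Of the 8 named genes that stood lower, 5 are known as interferon-induced or as sensors of foreign nucleic acid, and the whole interferon list is given further on. Irf7 (ENSMUSG00000025498, chromosome 7, 141262706 to 141266481), the transcription factor that amplifies type I interferon production, stood at 82.6, 130 and 95.8 CPM in WT and at 56.7, 60.5 and 55.9 CPM in knockout libraries. Its log2 fold change was -0.83 (SE 0.17; adjusted p = 0.317 with edgeR's quasi-likelihood test, the value shared by all 8). The knockout libraries lay close together and below every WT library. Zbp1, a sensor of Z-form nucleic acid, stood at 46.7, 75.5 and 53.3 CPM against 30.5, 33.1 and 31.3 CPM (log2 -0.89). Dhx58, which encodes the RIG-I-like receptor LGP2, stood at 15.9, 27.6 and 23.9 CPM against 11.6, 11.2 and 9.94 CPM (log2 -1.04). In each, WT replicate 2 was the highest library and the groups did not overlap. Oas3, an oligoadenylate synthetase that activates RNase L, and Ifi27l2a, an interferon-induced mitochondrial protein, had log2 fold changes of -1.31 and -1.53.

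The other 3 were Lst1, a small leukocyte membrane protein (log2 -1.82, from 11.3, 29.0 and 17.4 CPM in WT to 6.92, 4.64 and 4.74 in knockout libraries), Dcakd (log2 -0.69) and Lyz1. Lyz1 and its neighbour Lyz2 encode near-identical lysozymes, on chromosome 10 at 117287797 to 117292868 and close beside it, and they went in opposite directions. Lyz1 stood at 34.9, 90.5 and 54.0 CPM in WT and 22.1, 16.2 and 21.1 CPM in knockout libraries (log2 -1.59, SE 0.36). Lyz2, named here after its values were seen, stood at 16.5, 107 and 147 CPM in WT and 1179, 471 and 359 CPM in knockout libraries (log2 2.89, SE 0.77, edgeR adjusted p = 0.317). Lyz2 had the highest log2 fold change in the count table, and its lowest knockout library was above its highest WT library. Reads of such copies may be split unevenly between them. LILRB4 libraries held 15.3 to 24.4 CPM of Lyz2 and 23.3 to 44.4 CPM of Lyz1.

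**Figure D3:**
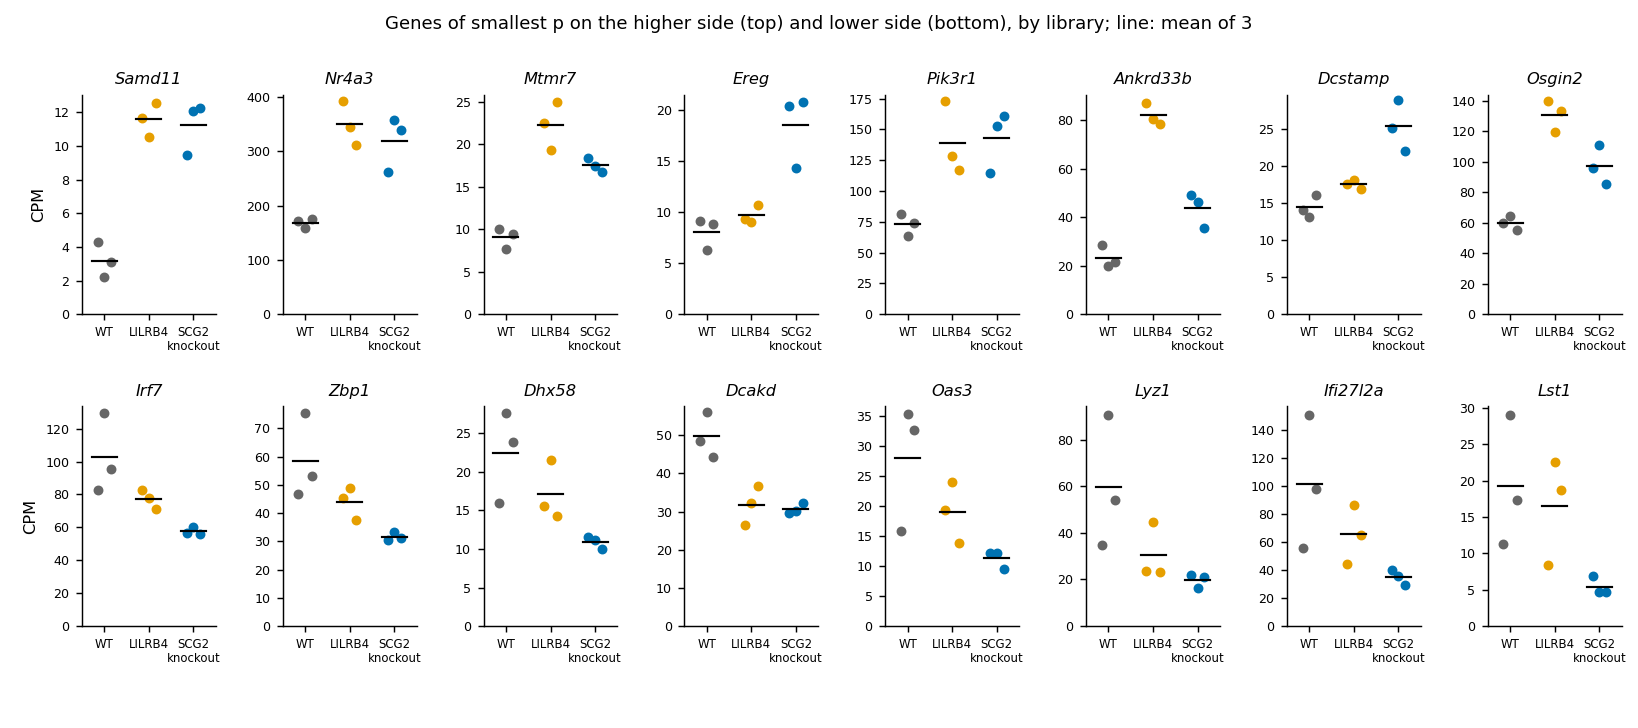
CPM per library (vertical axes, starting at 0) in WT, LILRB4 and SCG2 knockout libraries for the 8 named higher genes (top) and the 8 named lower genes (bottom); points are libraries and bars are means of 3. Knockout and WT points do not overlap in any panel, and on the lower side the WT points are spread more widely than the knockout points.

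The genes of the series title come next. Scg2 (ENSMUSG00000050711, chromosome 1, 79434669 to 79440120) had 1 recovered count in WT replicate 1 and 0 in the other WT libraries and in all knockout libraries, so the knockout label could not be checked with it. Where no count was seen, a level of up to 3 counts (0.124 to 0.200 CPM, by library) remains possible from counting error alone. Lilr4b stood at 1671, 767 and 833 CPM in WT and 1979, 1968 and 2109 CPM in knockout libraries (log2 0.89, SE 0.32). Lilrb4a stood at 767, 256 and 397 CPM against 723, 796 and 885 CPM (log2 0.76, SE 0.37). WT replicate 1 was the highest WT library for both, inside the knockout range for Lilrb4a and below it for Lilr4b. Without WT replicate 1 the values were 1.33 for Lilr4b and 1.30 for Lilrb4a. Neither passed edgeR's quasi-likelihood test (adjusted p = 0.317 and 0.358).

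Il6 (ENSMUSG00000025746, chromosome 5, 30013114 to 30019981, plus strand), the cytokine that signals through STAT3, stood at 52.1, 67.9 and 50.3 CPM in WT and at 121, 172 and 81.5 CPM in knockout libraries. The groups did not overlap, and knockout replicate 3 was the lowest of its group. The log2 fold change was 1.13 (SE 0.25; adjusted p = 0.317 with edgeR's quasi-likelihood test and 0.00689 with DESeq2). On its receptor side, Il6ra, the IL-6 binding chain, stood at 64.3, 70.4 and 98.1 CPM in WT and at 51.2, 53.4 and 53.2 CPM in knockout libraries (log2 -0.56, SE 0.30), without overlap. Il6st, the shared signalling chain gp130, overlapped between the groups (log2 0.19).

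Stat3 depends on which deposited table is read. The count table and the counts recovered from the FPKM table differ for 9 genes in these 6 libraries. For 7 of them, Stat3 and Arg1 included, the count table holds exactly the values of a LILRB4 library and a WT or knockout library the other way round, each time with the larger value on the LILRB4 library. Jak1 and Tgfb1 differ by multiples of 1000 counts. Over all 9 libraries 47 genes differ, in 56 values, 37 of them by multiples of 1000 counts. The 47 genes include Il6, Il1b, Tnf, Ly6c2 and Nos2, which differ only in a LILRB4 library. The LILRB4 libraries enter the shared estimate of spread. The files do not tell which table is right. In the count table Stat3 stood at 490, 316 and 367 CPM in WT and at 544, 561 and 882 CPM in knockout libraries (log2 0.76, SE 0.26). Knockout replicate 2 has 9195 deposited and 14978 recovered counts, and the recovered counts give a log2 fold change of 0.98. The knockout libraries lay above WT in both. Arg1, the arginine-degrading arginase, is exchanged in knockout replicate 1, with 15191 deposited and 26183 recovered counts. Its log2 fold change was -0.31 (SE 0.26) from deposited and 0.06 from recovered counts, so its direction is not settled. Nos2, inducible nitric oxide synthase, overlapped between groups at -0.17, and Socs3, the feedback inhibitor of STAT3 signalling, overlapped at 0.58 (SE 0.25).

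In the list of IL-6 receptors, JAK kinases and STAT3 regulators, 14 of 21 genes had positive and 7 negative log2 fold changes, with a median of 0.32 against 0.0027 over all genes. Without WT replicate 1 the median was 0.48. All knockout libraries stood above WT in 7 of them (13% over all genes) and below in 2 (10.4%). The 7 are the ligands Il6 and Clcf1 (log2 1.0), the receptor chain Il27ra (1.38), the kinases Jak1 (0.43) and Jak2 (0.54), Stat3 and the phosphatase gene Ptpn11. Il6ra and Ptpn6, which encodes the phosphatase SHP-1 (log2 -0.61), were the 2 below. Of the 28 STAT3 target genes 17 were positive, with a median of 0.14, and the median was -0.05 without WT replicate 3 and 0.02 without SCG2 knockout replicate 1. Of 16 LILRB4 receptors and partners 9 were positive and 7 negative, among them Itgb3, an integrin chain, at 1.74 and Pirb, a related inhibitory receptor, at -0.53.

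The type I interferon response genes leaned lower in knockout libraries. Of 25 listed genes 21 had negative log2 fold changes, with a median of -0.47, and 14 had an unadjusted p under 0.05, all of them lower, against 6.11% of all genes. All 3 knockout libraries stood below all WT libraries in 11 of the 25 (10.4% over all genes) and above in 1. Summed over the list, WT replicates 1 to 3 held 1060, 1412 and 1167 CPM and knockout replicates 1 to 3 held 961, 951 and 875 CPM, without overlap. The LILRB4 libraries held 1063 to 1302 CPM. Monocyte markers were lower in the knockout libraries as well, at 2155 ± 647 CPM in WT and 1433 ± 271 CPM in knockout libraries, and their part was not tested. Without WT replicate 2 the number at an unadjusted p under 0.05 was 8 and the median -0.30. Without SCG2 knockout replicate 3 that number was 8 as well, with a median of -0.37.

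Oas3 stood at 15.9, 35.2 and 32.6 CPM in WT and at 12.2, 12.2 and 9.41 CPM in knockout libraries. WT replicate 1 was the lowest WT library and still above the knockout range. Of the other oligoadenylate synthetase genes, Oas2 had a log2 fold change of -0.88, Oasl2 of -0.70 and Oas1a of -0.68, each without overlap. Ifi27l2a stood at 55.5, 150 and 98 CPM against 39.9, 35.9 and 29.6 CPM, and has a neighbouring near copy with which reads could be shared. Ifit2 and Ifit3, which block translation of viral RNA, stood at -0.47 and -0.55, while Ifit1 overlapped at 0.23.

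Stat2 and Irf9, subunits of the factor that carries the interferon signal, had log2 fold changes of -0.13 each and overlapped between the groups. Bst2, which encodes tetherin, stood at 125, 180 and 134 CPM in WT and at 127, 111 and 94.7 CPM in knockout libraries (log2 -0.40), with knockout replicate 1 inside the WT range. The cytosolic RNA sensors Ifih1 and Ddx58 stood at -0.05 and 0.00, Isg15, a ubiquitin-like modifier, at -0.03 and Rsad2, an antiviral radical enzyme, at 0.03. Oasl1 went the other way, at 61.7, 50 and 41.4 CPM in WT and 91.1, 73.8 and 99.7 CPM in knockout libraries (log2 0.79, SE 0.36).

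**Figure D4:**
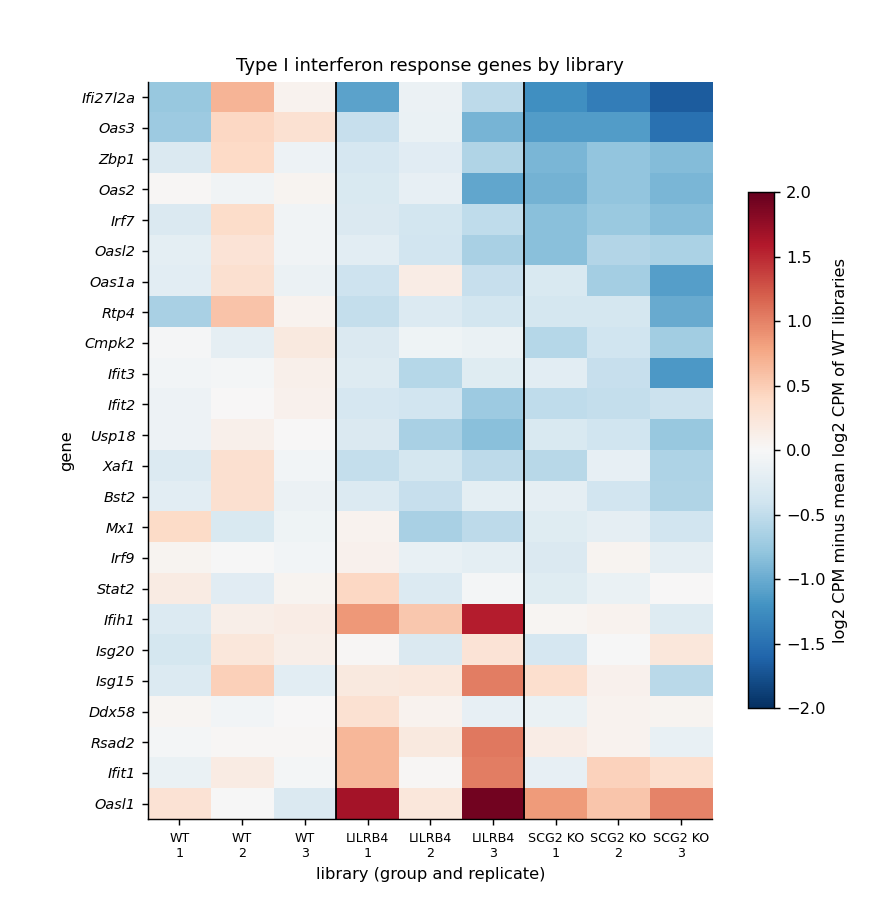
Log2 CPM of 24 of the 25 type I interferon response genes (rows) in each library (columns), relative to the mean of the WT libraries; blue is lower and red higher. The upper rows are blue in all 3 SCG2 knockout columns, while Ifih1, Ddx58 and Rsad2 are pale there and Oasl1 is red.

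Promoter sequence is shown for the interferon genes Oas3 and Bst2, which carry copies of the letters bound by the interferon factors, and for Il6, the cytokine gene described above. Each is the 250 bases before the RefSeq start on GRCm38.p6, written 5′ to 3′ on the gene's own strand. Capitals mark motif matches on either strand. The search, and the shares given below, also covered a short stretch after the start that is not printed.
Oas3 (chr5:120777660-120777909, minus strand): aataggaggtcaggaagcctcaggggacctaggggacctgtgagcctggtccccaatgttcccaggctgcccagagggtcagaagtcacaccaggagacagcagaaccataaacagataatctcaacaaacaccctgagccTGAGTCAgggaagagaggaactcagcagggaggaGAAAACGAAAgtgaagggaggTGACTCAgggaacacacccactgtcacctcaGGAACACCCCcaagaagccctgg
Bst2 (chr8:71537473-71537722, minus strand): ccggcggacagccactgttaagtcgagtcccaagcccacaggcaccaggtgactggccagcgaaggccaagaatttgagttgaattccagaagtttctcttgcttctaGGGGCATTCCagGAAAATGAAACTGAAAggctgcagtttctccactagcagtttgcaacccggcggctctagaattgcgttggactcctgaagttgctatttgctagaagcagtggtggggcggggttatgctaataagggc
Il6 (chr5:30012864-30013113, plus strand): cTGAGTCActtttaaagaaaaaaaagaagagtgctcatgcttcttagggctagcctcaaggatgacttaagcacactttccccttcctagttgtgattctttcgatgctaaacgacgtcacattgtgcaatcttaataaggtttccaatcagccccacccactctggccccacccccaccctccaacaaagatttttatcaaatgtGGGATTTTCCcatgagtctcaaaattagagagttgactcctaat
The motifs searched on both strands were the interferon-stimulated response element (GAAA, any 2 bases, then GAAA), AP-1 as TGANTCA, the cyclic AMP response element and the NF-kB consensus. The first of these was added after the values were seen. Oas3 has it at position -75 from the start and Bst2 at -130 and -124, as copies that overlap by 4 bases. Oas3 also has AP-1 matches at -109 and -54 and an NF-kB match at -23, and Bst2 an NF-kB match at -142. Il6 has an NF-kB match at -44 and an AP-1 match at -249. The interferon element was found in the promoters of 10 of the 18 list genes with a promoter in the table (55.6%), against 3.99% of 27025 genes in the whole table. The NF-kB consensus was found in 5 of the 18 (27.8%, against 9.55%) and AP-1 in 4 (22.2%, against 8.97%). Among the 7851 genes of the count table with a promoter, the shares were 4.11% for the interferon element, 12.7% for NF-kB and 6.32% for AP-1. The promoters of Samd11, Nr4a3, Ankrd33b, Irf7, Lyz1 and Dcakd held no match to any of these motifs. A match describes letters only. The list was chosen as interferon response genes, so these shares do not bear on the difference between knockout and WT.

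NF-kB subunits and inhibitors leaned higher. Of 20 listed genes 19 had positive log2 fold changes, with a median of 0.45, and all knockout libraries stood above WT in 13 of the 20 (13% over all genes). Unadjusted p was under 0.05 for 11 on the higher side (8.47% over all genes) and 1 on the lower side, Bcl3. Summed levels were 6647, 6116 and 5837 CPM in WT and 9469, 10601 and 8947 CPM in knockout libraries, and 7911 to 13811 CPM in LILRB4 libraries. The knockout libraries were all above WT. Without SCG2 knockout replicate 2 the number at an unadjusted p under 0.05 was 6.

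Both the factors and their brakes were among the higher members. Nfkb1, the precursor of the p50 subunit, stood at 543, 474 and 469 CPM in WT and at 930, 1112 and 827 CPM in knockout libraries (log2 0.95, SE 0.25). Tnfaip3, which encodes the inhibitor A20, stood at 1478, 909 and 1128 CPM against 2295, 2947 and 2328 CPM (log2 1.11, SE 0.33). In both the groups were well apart. The subunit genes Rel, Relb and Nfkb2 had log2 fold changes of 0.70, 0.61 and 0.56, the inhibitor Nfkbiz one of 0.70, and Traf1, an adaptor of TNF receptors, one of 0.79. Rela stood at 0.31, and Nfkbia, the classical inhibitor, overlapped at 0.34. T and NK cell markers were higher in these knockout libraries too.

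Among inflammatory cytokines 15 of 19 genes were positive, with a median of 0.49 (0.30 without SCG2 knockout replicate 2), and 7 of 19 stood above WT without overlap (13% over all genes). Besides Il6, these were the growth factor genes Csf2 and Csf3, the IL-12 family genes Il12a, Il12b and Il23a, and Tgfb1. Csf2, which encodes GM-CSF, stood at 16, 11.7 and 11.3 CPM in WT and at 37.7, 46.3 and 34.8 CPM in knockout libraries (log2 1.61). Csf3, which encodes G-CSF, stood at 14, 10.7 and 11.6 CPM against 31.4, 59.9 and 19.0 CPM (log2 1.60). Both pairs of groups were apart, by a wide margin in Csf2 and a narrow one in Csf3. LILRB4 replicates 1 to 3 held 23.9, 12.1 and 46.6 CPM of Csf2 and 79.0, 55.4 and 130 CPM of Csf3. Il23a had a log2 fold change of 1.43, Il12b one of 1.74 and Il12a one of 1.0. Tgfb1, at 0.29, has a count in WT replicate 2 that differs between the deposited tables, and with recovered counts its groups overlapped (log2 0.11).

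The strongly expressed members were not all higher. Il1b, which encodes IL-1 beta, stood at 1626, 3607 and 2225 CPM in WT and 2918, 3214 and 1701 CPM in knockout libraries (log2 0.07), and Tnf overlapped at 0.54. Il1a stood at 325, 333 and 210 CPM against 520, 808 and 312 CPM, with knockout replicate 3 inside the WT range (log2 0.92). Summed cytokine levels overlapped between the groups, at 4023 to 6294 CPM in WT and 4018 to 7257 CPM in knockout libraries.

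Among 18 chemokine genes 13 were positive in the count table, with a median of 0.62. With recovered counts of 24 chemokine genes the median was 0.25, and the added genes include Ccl12 at -1.22 and Cxcl11 at -0.94. Cxcl1, a neutrophil attractant, stood at 657, 810 and 499 CPM in WT and at 1137, 1674 and 1064 CPM in knockout libraries (log2 0.98, SE 0.29). Its paralogue Cxcl2 overlapped at 0.63, and Cxcl3 stood at 1.14 without overlap. Ccl2 and Ccl7, which attract monocytes, stood above WT at 0.62 and 0.67. Cxcl9 and Cxcl11, induced by interferon-gamma, had negative values (Cxcl9 at -0.97, with overlap), while Cxcl10 overlapped at -0.09.

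Genes for suppressive effectors of MDSCs did not share a direction. Of 28 genes 14 were positive and 14 negative, with a median of 0.06. Ptgs2, which encodes cyclooxygenase 2, stood at 1538, 1853 and 1976 CPM in WT and at 2828, 4104 and 2635 CPM in knockout libraries (log2 0.83, SE 0.23). Slc7a11, the cystine transporter, stood at 161, 189 and 222 CPM against 306, 490 and 449 CPM (log2 1.12, SE 0.24). Both stood above WT in all libraries. Slc7a2, an arginine transporter, had a log2 fold change of 1.05 and Pdcd1lg2, the PD-1 ligand PD-L2, one of 0.85. On the lower side Entpd1, the ATP-hydrolysing ectoenzyme CD39, stood at -0.68 and Lgals9, galectin 9, at -0.48, both with overlap. Genes outside the naming rule, chosen after their values were seen, include Odc1, the first enzyme of polyamine synthesis, at 739, 746 and 634 CPM in WT and 1632, 1562 and 1050 CPM in knockout libraries (log2 1.0), and Serpinb2, a plasminogen activator inhibitor, at 1.33.

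Early-response regulators leaned higher with smaller differences. Of 23 immediate-early AP-1 and EGR genes 19 were positive (median 0.28, and 0.46 without WT replicate 1), with Nr4a3 the largest at 0.92 and Jun and Junb at 0.28 and -0.02. Of 11 MAP kinase phosphatases 8 were positive, and Dusp5, which inactivates ERK, stood at 360, 337 and 283 CPM in WT and at 500, 572 and 423 CPM in knockout libraries (log2 0.61, SE 0.19). The groups did not overlap. In the EGF ligand family, 3 of 4 genes of the count table were positive. With recovered counts 6 of 7 were, with Tgfa at 2.07 (mean 1.57 CPM in WT and 6.6 CPM in knockout libraries), Areg at 0.94 and Hbegf at 0.54 beside Ereg. Nrg1 stood at -0.03 there. Bcl2l11, which encodes the death-promoting protein BIM, stood at 182, 141 and 146 CPM in WT and 247, 304 and 282 CPM in knockout libraries (log2 0.83, SE 0.17), while the survival gene Mcl1 overlapped at -0.12.

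Fc receptors and their signalling chains, which share some genes with the monocyte and interferon lists, had the lowest median of the lists tested, at -0.57. Of 18 genes 15 were negative, and all knockout libraries stood below WT in 8 of the 18 (10.4% over all genes). Fcgr1, the high-affinity IgG receptor, had a mean of 116 CPM in WT and 45.2 CPM in knockout libraries (log2 -1.36). Fcgr3 stood at 359 and 205 CPM in mean (log2 -0.81), and Fcer1g, the common signalling chain, at 322 and 192 CPM (log2 -0.75). Fcgr2b, the inhibitory Fc receptor, stood at 436, 630 and 488 CPM in WT and at 392, 351 and 274 CPM in knockout libraries (log2 -0.61, SE 0.26). The knockout libraries lay below every WT library in these genes. The kinases downstream were divided, with the Src-family gene Fgr at -0.59 but Syk at 0.05. On the lower side an unadjusted p under 0.05 was reached by 8 genes (6.11% over all genes). The number was 4 without SCG2 knockout replicate 3 and 5 without SCG2 knockout replicate 2. Without WT replicate 2 it was 2, with 1 on the higher side, where 215 of all 9877 genes were lower at that p.

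Monocyte and macrophage markers leaned the same way. Of the 10 monocyte markers 9 were negative (median -0.54, and -0.26 without WT replicate 2). Csf1r stood at 478, 692 and 576 CPM in WT and 450, 385 and 325 CPM in knockout libraries, without overlap (log2 -0.59, SE 0.24). Ly6c2, the surface marker that defines monocytic MDSCs in sorting, stood at 107, 296 and 174 CPM against 82.6, 107 and 101 CPM (log2 -0.99, SE 0.31), with WT replicate 1 at the level of knockout replicate 2. Of the 10 macrophage markers 9 were negative (median -0.52, -0.28 without WT replicate 2 and -0.79 without SCG2 knockout replicate 1). Cd68 stood lower without overlap (log2 -0.76), and Apoe and C1qb overlapped at -0.66 and -0.50. Mrc1, the mannose receptor, was the 1 positive member, at 0.25. Knockout replicate 1 held 1605 CPM of summed macrophage markers, inside the WT range of 1386 to 2026 CPM, while knockout replicates 2 and 3 held 1016 and 884 CPM.

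Cholesterol biosynthesis was the list with no positive member. All 21 genes of the count table had negative log2 fold changes, with a median of -0.38, and all knockout libraries stood below WT in 11 of them (10.4% over all genes). With recovered counts of 24 genes, 1 was positive. Nsdhl, Mvd and Dhcr7, enzymes of the pathway from mevalonate to cholesterol, had log2 fold changes of -0.73, -0.68 and -0.66. Srebf2, the factor that drives the pathway, overlapped at -0.17. The members at an unadjusted p under 0.05 numbered 9 (6.11% over all genes on the lower side), and 3 without SCG2 knockout replicate 2 and 5 without WT replicate 2 or WT replicate 3.

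Cell cycle genes were lower by small amounts. Of 30 mitosis and spindle genes 27 were negative (median -0.31, and -0.20 without WT replicate 3), and of 29 S phase and replication genes 26 were negative (median -0.26). All knockout libraries stood below WT in 9 of the mitosis genes and 14 of the replication genes, against 10.4% of all genes. Ccnb1, a mitotic cyclin, had a log2 fold change of -0.71, Plk1, a mitotic kinase, one of -0.59, and Cdkn2c, a cell cycle inhibitor, one of -0.62. Pcna, the replication clamp, stood at 348, 397 and 360 CPM in WT and at 316, 311 and 311 CPM in knockout libraries (log2 -0.24). Those groups did not overlap. The proliferation marker Mki67 went the other way within overlapping groups, at 0.23, and Top2a stood at -0.17.

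**Figure D5:**
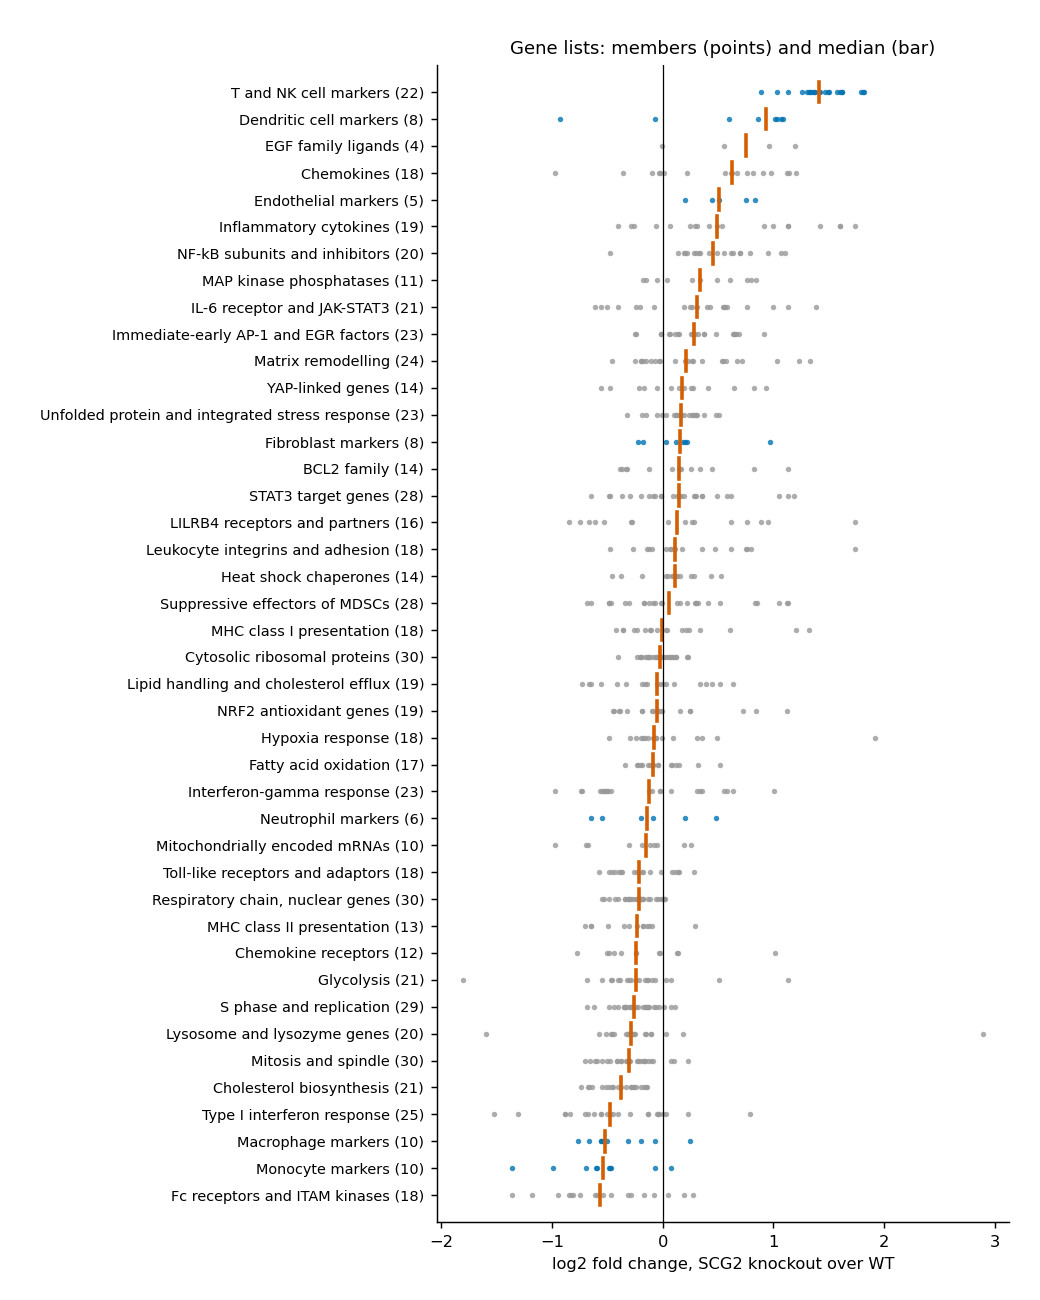
Log2 fold changes of SCG2 knockout over WT (horizontal axis) for the genes of each list, with the number of genes in parentheses; points are genes, blue for cell type markers and grey otherwise, and bars are medians. Lists with fewer than 3 genes in the count table are not drawn. Of those drawn, T and NK cell markers lie highest, at a median of 1.41, and Fc receptors and ITAM kinases lowest, at -0.57.

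Of 30 nuclear genes of the respiratory chain 26 were negative, with a median of -0.21, but the median was -0.08 without WT replicate 2, -0.10 without SCG2 knockout replicate 3 and -0.41 without SCG2 knockout replicate 1. Lysosome and lysozyme genes had a median of -0.29 (-0.13 without WT replicate 2 and -0.16 without SCG2 knockout replicate 3), with Lamp1 at -0.47 and the cathepsin gene Ctsb overlapping at -0.25. Medians were -0.03 for cytosolic ribosomal proteins and -0.01 for MHC class I genes, and both were above 0 without WT replicate 2 or SCG2 knockout replicate 3. Of 23 genes of the unfolded protein response 18 were positive, with a median of 0.17 (0.11 without SCG2 knockout replicate 1). In that list Hspa5, the main chaperone of the endoplasmic reticulum, stood at 3160, 3245 and 3026 CPM in WT and at 5180, 4531 and 3712 CPM in knockout libraries (log2 0.51, SE 0.22), without overlap. Irf8, a factor of monocyte and dendritic cell development, stood at 334, 188 and 197 CPM against 370, 511 and 565 CPM (log2 1.01, SE 0.33). Its highest WT library was WT replicate 1, below all knockout libraries. Dendritic cell markers were positive in 6 of 8 genes (median 0.94, and 0.60 without WT replicate 2), with Xcr1, of cross-presenting dendritic cells, at 1.09 and Ccr7 at 1.01. The other 2 dendritic cell markers were negative, the lowest at -0.93. Heat shock chaperones had a median of 0.11, which was 0.56 without WT replicate 1, -0.04 without WT replicate 2, -0.02 without WT replicate 3 and -0.03 without SCG2 knockout replicate 1. WT replicate 1 held 23135 CPM of them against 11117 and 12058 CPM in the other WT libraries.

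The count table holds protein-coding genes only, so genes outside it were read from counts recovered from the FPKM table. EdgeR's quasi-likelihood test on these 15743 genes called 0 in either direction (smallest adjusted p = 0.195). At an unadjusted p under 0.05, 1224 were higher (7.77%) and 831 lower (5.28%), and all knockout libraries stood above WT in 12.2% and below in 9.85%. Of 11 T cell receptor joining segments 7 had an unadjusted p under 0.05, all higher, with a median log2 fold change of 2.36, and 8 stood above WT without overlap. The 7 constant segments had a median of 1.65 and the 23 variable segments one of 1.71. Trbj1-5 stood at 0.522, 0.336 and 0.341 CPM in WT and at 2.41, 4.05 and 3.55 CPM in knockout libraries, well apart. These segments moved with the T and NK cell markers. Limma on log2(FPKM + 1) of 12425 genes called 0 higher and 0 lower, with 883 (7.11%) and 808 (6.5%) at an unadjusted p under 0.05 and a smallest adjusted p of 0.180.

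Protein-coding genes outside the count table were named after their values were seen. Itgb8, an integrin chain that activates latent TGF-beta, stood at 1.52, 1.01 and 1.36 CPM in WT and at 4.15, 5.05 and 5.42 CPM in knockout libraries (log2 1.91, SE 0.35). Sele, the endothelial adhesion molecule E-selectin, stood at 0.711, 0.798 and 0.438 CPM against 1.51, 3.11 and 3.43 CPM (log2 2.03). Tnfrsf8, which encodes CD30, had a log2 fold change of 1.17. The groups were apart in each, at low levels. On the lower side Epha8, an ephrin receptor, stood at 9.20, 12.3 and 10.5 CPM in WT and at 2.35, 4.29 and 6.10 CPM in knockout libraries (log2 -1.33, SE 0.33). The LILRB4 libraries, at 2.34 to 3.66 CPM of Epha8, were below WT as well. None of these passed (edgeR adjusted p = 0.339 for each).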

How the data were processed

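RNA sequencing libraries of 3 WT, 3 LILRB4+/+ and 3 LILRB4+/+ SCG2-/- samples were analysed from the deposited tables, not from reads. Per the submitters' processing notes, reads were aligned with HISAT2 2.0.5 and counted with featureCounts 1.5.0-p3. As deposited, 1 table holds the authors' raw counts of 9877 protein-coding genes and another holds FPKM of 54532 genes. No build is named, and whether counting used strand is not given in the sources used. Both gene ends matched GRCm38 for 98.3% of identifiers, so positions are on GRCm38.

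The main test was edgeR 4.0.16's quasi-likelihood test in R 4.3.3 on the deposited counts, with TMM scaling, edgeR's filter at a minimum count of 10, and all 9 libraries sharing 1 estimate of spread. Benjamini-Hochberg adjustment ran over all genes of a table. Deposited FPKM values were tested as log2(FPKM + 1) with limma 3.58.1, for genes of mean FPKM of at least 1. FPKM was multiplied by gene length and divided by a constant for each library, the median ratio of that product to the deposited counts. This recovered whole counts for 100.0% of values (tolerance 0.01 counts). EdgeR was run on the recovered counts as an alternative, with DESeq2 1.42.0 as another. The code was tested on simulated data. As no gene passed, the naming rule took the 8 genes of smallest p in each direction, 10 fixed genes (Scg2, Lilrb4a, Lilr4b, Il6, Il6ra, Il6st, Stat3, Socs3, Arg1 and Nos2) and the 2 members of highest mean CPM in each list. Other genes were named after their values were seen. Members and lists were chosen with earlier results of these data known. Groups came from the genotype labels. Replicate numbers were not used to pair the libraries. Deviations of same-numbered libraries correlated at -0.293, -0.126 and 0.409, and those of differently numbered libraries at -0.556 to 0.520. With 3 libraries a group these values cannot exclude a pairing. No 2 libraries were near-identical. Promoters were matched by symbol to RefSeq (GRCm38.p6), and 4 of the 8 higher and 4 of the 8 lower named genes had one. The alternatives are described after the results.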

Additional observations from a re-analysis of the deposited data

How the results depend on the processing

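DESeq2 called 69 genes higher and 23 lower in place of 0, and limma on FPKM of the 6 WT and knockout libraries alone called 1 higher, Trbj1-5 (limma adjusted p = 0.0370). Leaving out any single library gave 0 to 0 calls in each direction. With a replicate block edgeR called 0 and 0, with 1023 and 555 genes at an unadjusted p under 0.05. Whether the numbers pair the libraries is not known. The log2 fold change of Arg1 changed sign with recovered counts, to 0.063. With single libraries left out, Nos2 ranged from -0.39 to 0.052 (above 0 without SCG2 knockout replicate 1), Top2a from -0.30 to 0.059 (without WT replicate 3), Mcl1 from -0.41 to 0.041 (without SCG2 knockout replicate 3) and Cd74, the MHC class II chaperone, from -0.33 to 0.073 (without WT replicate 2). The cause of these changes was not tested. Of the 22 T and NK cell markers, 2 had an unadjusted p under 0.05, both higher, near the 8.47% of all genes. That number was 21 with the 6 libraries alone and 22 without LILRB4 replicate 2. In those settings 1105 and 1138 of all 9877 genes were higher at that p. It was 19 without WT replicate 1 (1207 of all genes). It was 0 without WT replicate 2, WT replicate 3 or any knockout library. The count table leaves out 810 protein-coding genes with a mean of at least 100 recovered counts in WT or knockout libraries, so its lists are incomplete. With 3 libraries a group and a median standard error of 0.19, small differences could not be resolved.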

Other observations

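Mast cell and endothelial transcripts belong to none of the comparisons above and were at low levels. Kit, the stem cell factor receptor of mast cells and progenitors, stood at 18.8, 6.11 and 14.8 CPM in WT and at 37.8, 65.5 and 57.9 CPM in knockout libraries, without overlap (log2 2.02, SE 0.73). It was the only mast cell marker of the count table. With recovered counts 4 were tested, with positive values for all 4, a median of 0.59 and 1 above WT without overlap. Pecam1, an adhesion molecule of endothelium and some leukocytes, stood at 29.8, 21.8 and 24.7 CPM against 39.6, 49.4 and 40 CPM (log2 0.76). The 5 endothelial markers of the count table all had positive values (median 0.51, with 1.03 without WT replicate 1 and 0.22 without WT replicate 2), and with recovered counts 5 were positive and 2 negative (median 0.44). Neither gene passed edgeR's quasi-likelihood test. Outside the count table, 433 antisense genes were tested with recovered counts. An unadjusted p under 0.05 was reached by 46 of them above and 13 below WT (7.77% and 5.28% over all genes), with a median log2 fold change of 0.41. Reads of these genes and of the genes they overlap may be shared.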
